A study of Danio rerio with 2 samples.

Results

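The genes described here are 9 blood transcription regulators of zebrafish, namely tal1, lmo2, runx1, myb, nfe2, gfi1aa, gfi1b, ikzf1 and meis1b, which act in the common blood and vessel progenitor (the hemangioblast), in hematopoietic stem cells or in early blood lineages. GATA factors and the ETS factors of vessels were left out of the set. The members were found by their zebrafish protein name in both read tables, and the reads of all transcripts with the same gene ID were summed. They are 9 of the 22017 gene IDs with at least 1 read. The rule names genes by function and uses no value of these libraries, although earlier results of these data were known when it was written.

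The study sorted cells from Tg(fli1a:EGFP)y1 zebrafish embryos in order to find genes needed for blood vessel development, and sequenced RNA from GFP+ and GFP- cells as 1 library each. In this line the promoter of fli1a, an ETS factor gene, drives EGFP, so both groups carry it and differ by green fluorescence at the sort. The sample labels give 22 to 24 hours post fertilization (hpf) for both groups and the text of the study gives 24 hpf; no drug or mutation is named in the labels, and the Tuebingen strain is the one named in the methods. The labels call the GFP+ cells endothelial and the GFP- cells non-endothelial, and the number of embryos pooled is not given in the sources used here.

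Tal1 is a basic helix-loop-helix factor that binds DNA as a dimer with an E protein, and the LIM-only protein Lmo2 joins this dimer, through Ldb1, to GATA factors. In vertebrate embryos this complex acts early, when lateral mesoderm forms blood and vessel precursors, whereas Runx1 and Myb are known for the later formation of stem cells from the floor of the dorsal aorta. Gfi1 repressors, Ikaros, NF-E2 and Meis factors act in blood formation as well, and Meis factors also act as Hox cofactors in the nervous system and other tissues.

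The GFP+ library held 4441335 counted reads and the GFP- library 4105672, and a floor of 3 reads was 0.675 RPM (reads per 1000000 counted reads) in the GFP+ library and 0.731 RPM in the GFP- library. All 6 vascular markers with at least 10 reads were higher in GFP+ cells, with a summed level over the 8 matched markers of 1609 RPM against 27.3 RPM, and pecam1 had 628 GFP+ reads and no GFP- read, while cdh5 and tek, with 5 and 7 GFP+ reads and no GFP- read, were too rare to be tested. The reporter's own gene, fli1a, had 753 GFP+ reads and 9 GFP- reads, and the markers with most reads, the VEGF receptor gene kdrl and mrc1a, had 2640 and 71 and 1693 and 2. All 11 primitive red cell markers were higher as well (75850 RPM against 678 RPM), led by the beta-globins hbbe1.1 (150452 and 1130 reads, over 3 gene IDs) and hbbe3 (96789 and 783 reads), with no GFP- read for slc4a1a. All 6 tested myeloid markers were higher (196 RPM against 14.1 RPM over 9 matched markers), led by lyz (381 and 7 reads) and coro1a (240 and 13 reads), while spi1b, cxcr3.2 and marco, with 3, 2 and 1 GFP+ reads and no GFP- read, were not tested and lie at or under the floor of 3 reads. Of 8 neural markers 5 were lower in GFP+ cells and 3 were not called. Those with most reads were sox3 (476 and 1801 reads) and elavl3 (791 and 1474 reads). Of the 5 lower genes elavl3 differed least (178 against 359 RPM). All 3 tested muscle markers were lower, among them actc1b (2425 and 7904 reads) and myod1 (38 and 310 reads). Pharyngeal arch markers took 325 RPM and 280 RPM, with 2 of 6 lower, 4 not called and none higher, and the ones with most reads were prdm1a (1141 and 748 reads) and dlx2a (184 and 170 reads). The library labelled endothelial thus also held red cell and myeloid transcripts, and every ratio below is between mixed populations, in which fewer cells of a type and less RNA per cell cannot be told apart.

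A gene was called higher or lower when its log2 ratio of RPM, GFP+ over GFP- with 0.5 reads added, was above 1 or under -1 and Fisher's exact test, two-sided and run on read counts, gave a Benjamini-Hochberg adjusted p under 0.001 over all 22017 gene IDs. Each group is 1 library, so this test sets one library against the other rather than one condition against the other, and no difference has a replicate check. Intervals in parentheses are exact Clopper-Pearson 95% intervals and cover counting error only. Of the 9 regulators 7 were called higher in GFP+ cells, 1 was called lower and 1 was not called. Over the 15252 genes with at least 10 reads, a filter that all 9 members passed, 9.78% were called higher and 10.7% lower. The median log2 ratio was 3.51 for the members and -0.11 for all genes tested. The members' median is the value of runx1, which rests on 18 GFP+ reads and 1 GFP- read. With 5 reads added in place of 0.5 the log2 ratio of runx1 was 1.83, so this median depends on the reads added.

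**Figure D1:**
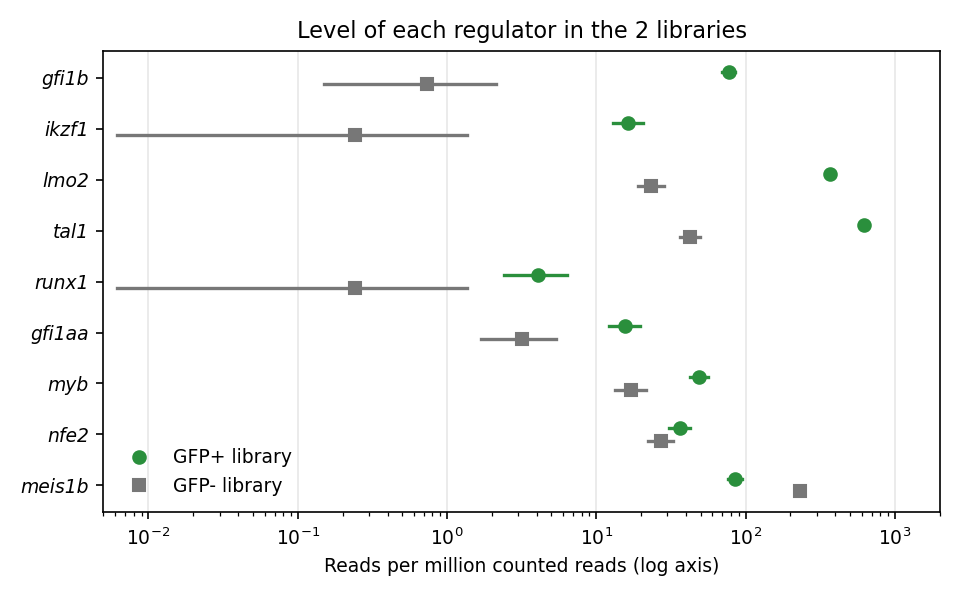
Reads per 1000000 counted reads (log axis) of each of the 9 regulators in the GFP+ library (green circles) and the GFP- library (grey squares), with exact 95% intervals for counting error. The libraries lie farthest apart for gfi1b (77.0 against 0.731 RPM), nearly meet for nfe2 (36.3 against 27.0 RPM), and meis1b is the one gene with the grey square on the right (85.1 against 231 RPM).

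The hemangioblast pair tal1 and lmo2 had the highest levels of the set in GFP+ cells. The gene tal1 (ENSDARG00000019930, chromosome 22 of Zv9 from 16757547 to 16767302, forward strand) had 2763 reads in GFP+ cells, or 622 RPM (599 to 646), and 175 reads in GFP- cells, or 42.6 RPM (36.5 to 49.4). For lmo2 (ENSDARG00000095019, chromosome 18 from 36726166 to 36733954, forward strand) there were 1629 GFP+ reads, or 367 RPM (349 to 385), and 96 GFP- reads, or 23.4 RPM (18.9 to 28.6). For neither gene did the 2 intervals come near each other. The ratio was 14.6-fold for tal1 (12.5 to 17.1; log2 3.86, 3.65 to 4.10) and 15.6-fold for lmo2 (12.8 to 19.5; log2 3.96, 3.67 to 4.28), and the intervals of the ratios overlapped. Both adjusted p-values of Fisher's exact test were too small for the computation to hold. Of the 15252 tested genes, 309 had a higher ratio than lmo2 and 317 a higher ratio than tal1.

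The balance between tal1 and lmo2 was similar in both libraries. Per length, tal1 stood at 235 RPKM (RPM divided by the transcript length in kilobases) and lmo2 at 203 RPKM in GFP+ cells, a ratio of 1.16, and at 16.1 and 13.0 RPKM in GFP- cells, a ratio of 1.25. Each gene had a single listed transcript, of 2643 bases for tal1 and 1805 bases for lmo2. Reads covered 99.8% of the tal1 transcript and 98.0% of the lmo2 transcript in GFP+ cells, and 74.2% and 66.3% in GFP- cells. The GFP- reads of both genes were therefore spread along most of the transcript. A further record on chromosome 6 whose protein name resembles tal1 (ENSDARG00000091603) is not a member, and its 20 GFP+ reads and 1 GFP- read were not added to tal1.

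The genes listed beside tal1 and lmo2 did not as a list show this direction. The list mixes E proteins and Ldb adaptors, which join the complex, with Id inhibitors and paralogs of tal1 and lmo2. In it 15 of 19 listed genes were matched and 14 tested, with a median log2 ratio of -0.26. By Fisher's exact test 0 were higher and 6 lower (42.9%), beside 9.78% and 10.7% of all tested genes. Only the lower call of ldb1a fell on a partner, and the rest fell on Id genes and LIM-only paralogs. The inhibitors id1 (3312 and 8051 reads, log2 -1.39), id2a (187 and 541, log2 -1.64) and id3 (870 and 2305, log2 -1.52), which bind E proteins and keep them off DNA, were all lower in GFP+ cells. Lower too were ldb1a, the adaptor of the Lmo2 complex (346 and 702 reads, log2 -1.13), and the LIM-only genes lmo3 (35 and 135, log2 -2.05) and lmo4b (103 and 298, log2 -1.64). The E protein genes themselves were not called, with 62 and 29 reads for tcf3a (log2 0.97), 134 and 82 for tcf3b (log2 0.59) and 310 and 317 for tcf12 (log2 -0.15). Nor was the other matched adaptor gene, ldb2b (167 and 199 reads, log2 -0.37). The largest ratio of the list belonged to tal2, a paralog of tal1, with 14 and 4 reads and a log2 ratio of 1.57 that was not called. The GATA cofactor gene zfpm1 (Fog1), taken from the list of other blood regulators, was higher with 721 and 81 reads (log2 3.03, 2.71 to 3.39). The remaining tested genes of that list were not called, from cebpa, a myeloid factor gene (131 and 62 reads, log2 0.96), down to bcl11aa (21 and 26 reads, log2 -0.42).

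Of the stem cell regulators, runx1 was rare and myb moderately abundant, and both were higher in GFP+ cells. The main runx1 record (ENSDARG00000025921, chromosome 1 from 1063377 to 1075836, forward strand) had 18 reads in GFP+ cells, or 4.05 RPM (2.40 to 6.41), and 1 read in GFP- cells, or 0.244 RPM (0.00617 to 1.36). Its ratio was 11.4-fold with an interval of 2.63 to 693 (log2 3.51, 1.39 to 9.44), and Fisher's exact test gave an adjusted p of 0.000439. The GFP- count lies under the floor of 3 reads, and the interval of the ratio stays above 1-fold but spans more than 2 orders of magnitude. Adding 5 reads in place of 0.5 lowered the log2 ratio to 1.83. A second gene ID with the runx1 protein name lies close by on the reverse strand (ENSDARG00000087646, 1088740 to 1093175) and had 5 and 0 reads. Summed over both IDs, an alternative chosen after seeing the data, runx1 had 23 and 1 reads and a log2 ratio of 3.86 (1.79 to 9.77). The GFP+ reads covered 47.3% of the 915 bases of the main transcript and 42.2% of the 417 bases of the second.

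Reads of myb (ENSDARG00000053666, chromosome 23 from 32054002 to 32068622, forward strand) numbered 218 in GFP+ cells, or 49.1 RPM (42.8 to 56.1), and 70 in GFP- cells, or 17.1 RPM (13.3 to 21.5). The libraries differed beyond counting error, by 2.87-fold (2.19 to 3.83; log2 1.52, 1.13 to 1.94), with an adjusted p of 2.28e-15 by Fisher's exact test. The ratio of myb was thus the smallest of the 7 regulators called higher, and 1544 of the tested genes had a larger one. Its GFP- level was 34.7% of its GFP+ level (26.2% to 45.7%), and that of runx1 was 6.01% with an interval of 0.144% to 38.1% that overlaps it. Of its 2 transcripts the longer, of 3317 bases, held 206 and 67 reads and the shorter, of 2085 bases, held 12 and 3. When edgeR's exact test was run with a biological coefficient of variation set to 0.4, neither call held (adjusted p 0.222 for runx1 and 0.67 for myb).

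The genes listed beside runx1 included some that were higher in GFP+ cells, and those listed beside myb did not. Of 6 tested Runx and ETO genes 3 were higher and 0 lower, beside 9.78% and 10.7% of all tested genes. The median log2 ratio of these 6 was 1.75. Higher were cbfb, the non-DNA-binding partner of Runx proteins (131 and 23 reads, log2 2.37, 1.75 to 3.10), and the ETO corepressor genes cbfa2t3 (269 and 44, log2 2.49, 2.03 to 2.99) and runx1t1 (25 and 4, log2 2.39). The paralog runx3 had 43 and 18 reads and a log2 ratio of 1.12, without a call (adjusted p 0.0153, Fisher's exact test), and the smallest ratio was that of runx2b (12 and 20 reads, log2 -0.83). Neither tested member of the Myb family was called, with 195 and 125 reads for mybl2a (log2 0.53) and 113 and 74 for mybl2b (log2 0.49). The difference between these lists was not tested.

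**Figure D2:**
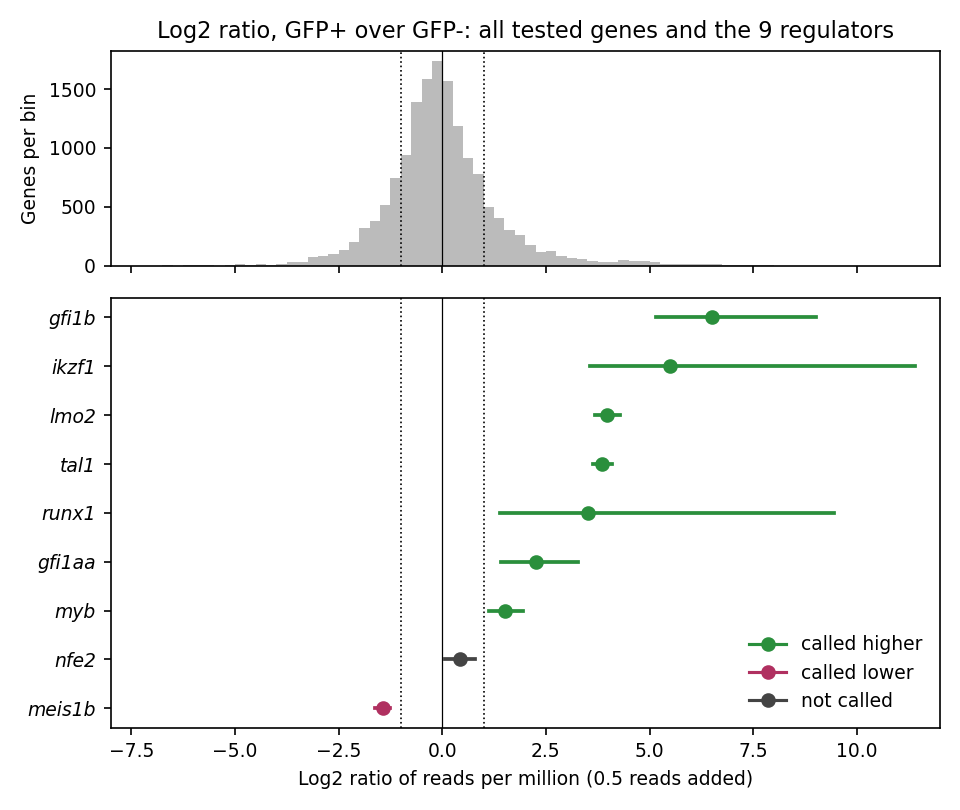
Upper panel, number of genes per bin of log2 ratio for all 15252 tested genes. Lower panel, log2 ratio of RPM (GFP+ over GFP-, 0.5 reads added) of each regulator with its exact 95% interval for counting error and dotted lines at 1 and -1. The 7 green genes lie wholly to the right of 1 (myb, the nearest, from 1.13 to 1.94), nfe2 lies between the lines and meis1b lies to the left of -1.

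The largest ratio in the set was that of gfi1b, which encodes a zinc finger repressor of the erythroid and megakaryocytic lineages in mammals. It (ENSDARG00000079947, chromosome 21 from 15791894 to 15807562, reverse strand) had 342 reads in GFP+ cells, or 77.0 RPM (69.1 to 85.6), and 3 reads in GFP- cells, or 0.731 RPM (0.151 to 2.14). The GFP- level was at the floor of 3 reads and amounted to 0.949% of the GFP+ level, with no reads added. The ratio was 90.5-fold (35.8 to 514; log2 6.50, 5.16 to 9.0), with an adjusted p of 3.74e-90 by Fisher's exact test, and 37 of the 15252 genes had a larger one. The transcript of 1005 bases held 306 and 3 reads and that of 754 bases held 36 and 0.

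Its relative gfi1aa (ENSDARG00000020746, chromosome 2 from 10558049 to 10576954, forward strand), a repressor gene of primitive red cells in zebrafish, was also higher in GFP+ cells but less so. It had 69 reads, or 15.5 RPM (12.1 to 19.7), against 13 reads, or 3.17 RPM (1.69 to 5.42). The ratio was 4.76-fold (2.69 to 9.68; log2 2.25, 1.43 to 3.27), with an adjusted p of 1.06e-08 by Fisher's exact test. The intervals of the gfi1aa and gfi1b ratios did not overlap. Per length the order of the paralogs differed between libraries, since gfi1b (79.3 RPKM) stood 7.48 times above gfi1aa (10.6 RPKM) in GFP+ cells while gfi1aa (2.16 RPKM) stood 2.97 times above gfi1b (0.727 RPKM) in GFP- cells. The last ratio rests on 13 and 3 reads. Both ratios set a gene with 1 listed transcript (gfi1aa) against a gene with 2 (gfi1b), and the part of this was not tested. The call of gfi1aa did not hold with edgeR's exact test at the assumed variation (adjusted p 0.316), whereas that of gfi1b did (adjusted p 8.93e-06).

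The third paralog was called in the other direction. Its gene, gfi1ab, had 10 GFP+ reads and 46 GFP- reads and was lower in GFP+ cells (log2 -2.26, -3.47 to -1.31; adjusted p 1.66e-06, Fisher's exact test). The genes for the histone demethylase and deacetylase complex that Gfi1 proteins recruit were not called, with log2 ratios of 0.00 for rcor1 (715 and 660 reads), -0.34 for kdm1a (968 and 1133 reads) and -0.73 for hdac1 (1768 and 2715 reads). Of the 5 genes of this list 1 was therefore lower and 0 were higher, beside 10.7% and 9.78% of all tested genes.

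The Ikaros gene ikzf1, a zinc finger factor gene known for lymphoid development, was almost absent from the GFP- library. It (ENSDARG00000013539, chromosome 13 from 15911857 to 15948447, reverse strand) had 73 reads in GFP+ cells, or 16.4 RPM (12.9 to 20.7), and 1 read in GFP- cells, or 0.244 RPM (0.00617 to 1.36). The ratio was 45.3-fold with an interval of 11.7 to 2701 (log2 5.50, 3.55 to 11.40) and an adjusted p of 1.14e-18 by Fisher's exact test. As for runx1, the interval is wide because of the single GFP- read, and adding 5 reads gave a log2 ratio of 3.59. Its 3 transcripts of 2301, 1513 and 1915 bases held 60, 7 and 6 reads in GFP+ cells, and the lone GFP- read fell on the first. Of its relatives only ikzf2 had enough reads to be tested, with 1 and 11 reads and no call (log2 -3.05), while ikzf4 had 2 and 0 reads and ikzf5 had 4 and 3.

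The NF-E2 subunit gene nfe2 was the regulator with no call. It (ENSDARG00000020606, chromosome 23 from 36360868 to 36367896, reverse strand) had 161 reads in GFP+ cells, or 36.3 RPM (30.9 to 42.3), and 111 reads in GFP- cells, or 27.0 RPM (22.2 to 32.6). The intervals of the 2 levels overlapped. The ratio was 1.34-fold (1.05 to 1.72; log2 0.42, 0.07 to 0.79), with an adjusted p of 0.0523 by Fisher's exact test, so that at this depth the ratio lay between nearly equal levels and 1.72-fold, under the threshold for a call. That interval covers counting error under scaling to library totals and moves with the scaling. Across the alternatives the log2 ratio ran from 0.39 to 0.77, the last with scaling to beta-actin, and none gave a call. Most reads fell on the transcript of 3690 bases (156 and 110), and 5 and 1 fell on that of 1640 bases. In mammals NF-E2 pairs with small Maf proteins at the globin genes, and its GFP- level here was 74.6% of its GFP+ level, against 0.894% for the summed red cell markers.

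Among the genes of the same basic leucine zipper families 8 were tested, of which 2 were higher and 1 lower. Of all tested genes 9.78% were higher and 10.7% lower. The repressor genes bach1a (174 and 69 reads, log2 1.21) and bach1b (82 and 22 reads, log2 1.76) were higher, and the cap'n'collar gene nfe2l3 was lower (304 and 805 reads, log2 -1.52). The small Maf gene maff was not called (790 and 681 reads, log2 0.10), and the smallest ratio, of nfe2l2b, rested on 2 and 16 reads (log2 -2.84, not called).

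The homeobox gene meis1b was the single regulator called lower in GFP+ cells. It (ENSDARG00000012078, chromosome 13 from 5167187 to 5246198, reverse strand) had 378 reads in GFP+ cells, or 85.1 RPM (76.7 to 94.1), and 948 reads in GFP- cells, or 231 RPM (216 to 246). The GFP- level was 2.71-fold higher (2.41 to 3.07; log2 GFP+ over GFP- -1.44, -1.62 to -1.27), with an adjusted p of 2.02e-65 by Fisher's exact test, and 1553 genes had a smaller log2 ratio. With edgeR's exact test at the assumed variation the call did not hold (adjusted p 0.853). It was far from absent in GFP+ cells, where its 32.5 RPKM was the fourth level of the set, above myb (15.3 RPKM) and nfe2 (10.2 RPKM). In GFP- cells, at 88.6 RPKM, it was the most abundant of the 9, 5.49 times above tal1 per length, while in GFP+ cells tal1 stood 7.24 times above meis1b. These ratios set a gene with 3 listed transcripts against a gene with 1, and the part of this was not tested. Nearly all its reads (376 and 940) fell on the transcript of 2644 bases, of which 52.8% was covered in the GFP+ library and 54.0% in the GFP- library. The zebrafish protein name by which the gene was found stands on its transcript of 893 bases, with 2 and 6 reads, and the other transcripts were joined to it by gene ID, since their best protein match was in another species.

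The other genes of its family went the same way or were not called. Of 8 tested Meis and Pbx genes 2 were lower by Fisher's exact test, meis1a (108 and 256 reads, log2 -1.35) and meis3 (296 and 873 reads, log2 -1.67), and 0 were higher, with a median log2 ratio of -0.84. Of all tested genes 10.7% were lower and 9.78% higher. The most read Pbx gene, pbx4, which encodes a partner of Meis and Hox proteins, had 1343 and 2186 reads and a log2 ratio of -0.82 without a call. The largest ratio was that of pbx1b, with 10 and 0 reads and no call (adjusted p 0.00773, Fisher's exact test). Neural and muscle markers moved in the same direction as meis1b, with summed GFP- levels at 328% and 366% of the GFP+ levels against 271% for meis1b, and their part in its ratio was not tested.

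**Figure D3:**
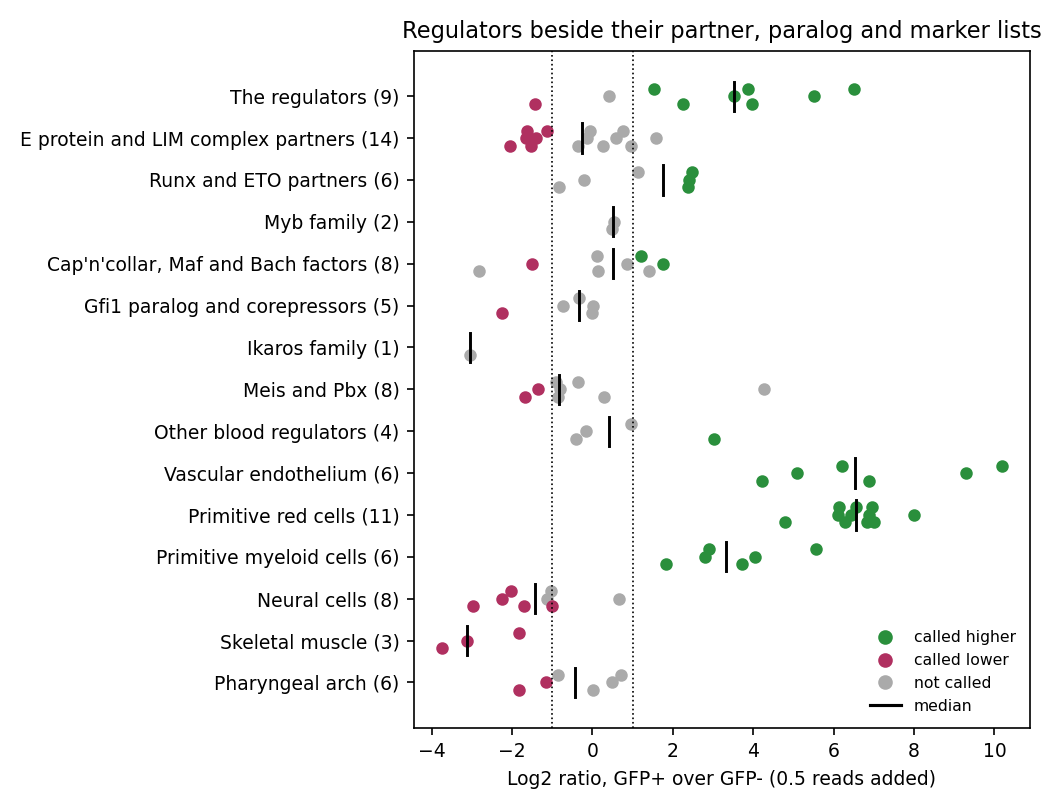
Log2 ratio (GFP+ over GFP-, 0.5 reads added) of every tested gene in the regulator set, in 8 lists of partners and paralogs and in 6 lists of cell type markers; points are genes, colours give the call, black bars are medians and the number tested is in brackets. The regulators (median 3.51) lie to the right of the E protein and LIM partners (median -0.26). The median of the regulators is the value of runx1, from 18 and 1 reads. The point near 4 among Meis and Pbx genes is pbx1b, whose 10 and 0 reads set no upper bound.

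Over all 8 lists of partners and paralogs, 56 of 68 genes were matched by symbol and 48 tested. Of these 6 were higher (12.5%) and 10 lower (20.8%), beside 9.78% and 10.7% of all tested genes, and the median log2 ratio was -0.10. With edgeR's exact test at the assumed variation 1 partner gene was called higher and 0 lower. Thus none of the 10 lower calls held, gfi1ab, id1 and meis1a among them. At most 1 of the 6 higher calls held, which were those of cbfb, cbfa2t3, runx1t1, bach1a, bach1b and zfpm1. The share of all genes that this test calls is not given here. The share called higher in the main test was near that of all genes, and 77.8% of the regulators themselves were called higher.

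By the size of the ratio the regulators fell in the order gfi1b, ikzf1, lmo2, tal1, runx1, gfi1aa, myb, nfe2 and meis1b. The interval of gfi1b overlapped that of ikzf1 but not those of lmo2 and tal1, and ikzf1 overlapped lmo2 and tal1. The intervals of lmo2, tal1 and runx1 overlapped one another. Those of tal1 and gfi1aa did not, although the broad interval of runx1 spanned both, and gfi1aa overlapped myb. The interval of runx1 (log2 1.39 to 9.44) also overlapped those of gfi1b, ikzf1 and myb, so these counts do not fix its place in the order. The intervals of myb and nfe2 were separate, as were those of nfe2 and meis1b. By level per length the order in GFP+ cells was tal1, lmo2, gfi1b, meis1b, myb, gfi1aa, nfe2, ikzf1 (7.62 RPKM) and runx1 (4.43 RPKM). In GFP- cells it was meis1b, tal1, lmo2, nfe2 (7.41 RPKM), myb (5.27 RPKM), gfi1aa, gfi1b, runx1 (0.266 RPKM) and ikzf1 (0.106 RPKM), the last 3 resting on 3 reads or fewer. Both orders set genes with 1 listed transcript (tal1, lmo2, runx1 and gfi1aa) beside genes with more. Transcripts of the latter kind were in general less covered, and the part of this in the orders was not tested.

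The GFP- level as a share of the GFP+ level places the regulators beside the marker lists. It was 0.949% for gfi1b (0.195% to 2.80%) and 1.48% for ikzf1 (0.0370% to 8.52%), and the summed red cell and vascular markers stood at 0.894% and 1.70%. It was 6.85% for tal1 (5.85% to 7.99%) and 6.38% for lmo2 (5.13% to 7.84%), and the summed myeloid markers stood at 7.21%. The interval of ikzf1, which rests on 1 GFP- read, takes in these values as well. For runx1 it was 6.01%, with an interval (0.144% to 38.1%) that takes in the red cell, vascular and myeloid values. For gfi1aa it was 20.4% (10.3% to 37.2%), for myb 34.7% (26.2% to 45.7%) and for nfe2 74.6% (58.0% to 95.6%), all above the summed values of the red cell, vascular and myeloid lists. Single markers varied within each list, so nearness to a summed value does not assign a regulator to a list. The smallest ratio of the tested vascular markers was that of esama (472 and 23 reads, log2 4.22). Its interval (log2 3.64 to 4.92) overlapped those of tal1 and lmo2. Red cell markers ran from fech (1621 and 54 reads, log2 4.78) to tfr1a (5121 and 18 reads). Tested myeloid markers ran from csf1ra (75 and 19 reads, log2 1.84) to lyz (381 and 7 reads, log2 5.56). Of these csf1ra had a smaller ratio than gfi1aa (log2 2.25). The other tested myeloid markers had larger ratios than gfi1aa. The part of cell mixture in these values was not tested.

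**Figure D4:**
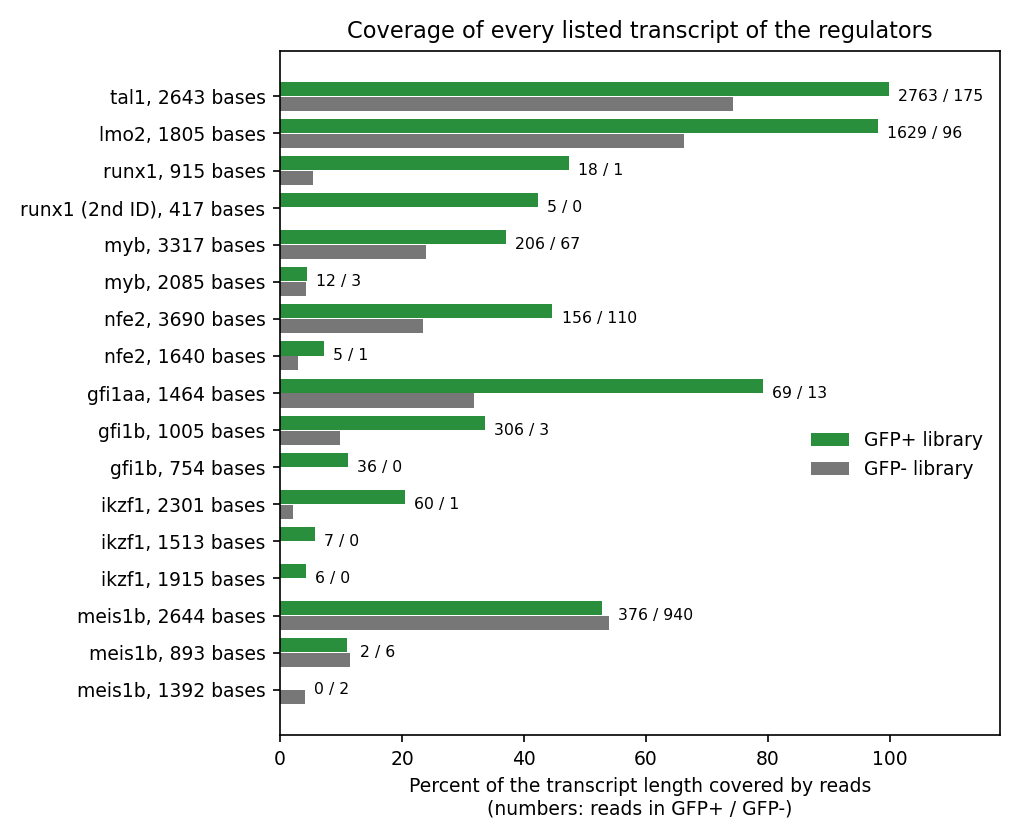
Share of the transcript length with reads on it (percent) for every listed transcript of the 9 regulators and the second runx1 gene ID, in the GFP+ library (green) and the GFP- library (grey), with the reads in both printed at the bar. The single transcripts of tal1 (99.8% and 74.2%) and lmo2 (98.0% and 66.3%) were covered over most of their length, whereas the gfi1b transcript of 1005 bases with 306 GFP+ reads reached 33.5%.

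Coverage of the regulators differed with the number of transcripts listed for the gene. Of the 9 genes 4 had 1 listed transcript under the main gene ID and 5 had more than 1. The gene gfi1aa, with 1 transcript of 1464 bases, reached 79.2% coverage from 69 GFP+ reads, while the main transcripts of myb, nfe2, gfi1b and ikzf1 reached 37.0%, 44.7%, 33.5% and 20.4% from 206, 156, 306 and 60 reads. The same held over all transcripts of 1000 to 4000 bases at 5 to 50 RPKM, whose median coverage in GFP+ cells was 78.0% for genes with 1 listed transcript (3396 transcripts) and 45.5% for genes with more (1079), and in GFP- cells 75.8% and 45.1%. Reads were counted only where they mapped uniquely, and the part of this in the lower coverage was not tested.

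Some other genes had nearly the same ratio as the regulators. Among 7123 genes with a symbol and at least 100 reads, the nearest to tal1 in log2 ratio were phospho2 and si:ch211-39i19.5, each with 148 and 9 reads on different chromosomes (log2 3.85), and tmem120aa with 630 and 40 reads (log2 3.85). Nearest to meis1b were brf1a (54 and 136 reads), jdp2b (361 and 906 reads) and zgc:110699 (30 and 76 reads), all at a log2 ratio of -1.44. The likeness is that of a single ratio between 2 libraries.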

How the data were processed

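RNA from GFP+ and GFP- cells of Tg(fli1a:EGFP)y1 embryos was sequenced by the study as 1 library per group from TruSeq RNA kits. The authors deposited, per transcript of Zv9 with a read, the count of uniquely mapped reads, the RPKM (reads per kilobase, scaled to the library total), the length and the coverage as percent of the length. The aligner and counter are not given in the sources used here, nor is strand. Counts were summed by gene ID; RPKM values of transcripts were likewise summed. RPM is the count per 1000000 counted reads of the library.

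The log2 ratio of RPM took 0.5 added reads, and the GFP- level as a percentage of the GFP+ level took none. Intervals for the ratio were derived from the GFP+ share of a gene's reads by the Clopper-Pearson method at 95%, and the two-sided Fisher's exact test was adjusted over 22017 gene IDs. The background is the 15252 genes with a summed count of 10 or more. Symbols came from the deposited RefSeq protein accessions, matched to RefSeq genes on GRCz12tu, and otherwise from gene names listed by Ensembl gene ID. This gave a symbol to 17976 of 22017 gene IDs, and no coordinate was taken from that assembly. On simulated libraries that differed by counting error alone, 195 of 200 genes with at least 40 reads and a 4-fold change were recovered and 0 of 20876 unchanged genes were called, which does not cover other variation between libraries.

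The text names the 9 members, in each partner list the called genes and both ends, up to 2 of the most read genes per marker list, and the 3 genes nearest tal1 and meis1b. A few list genes outside this rule (tcf3a, tcf3b, tcf12, ldb2b, runx3, maff, kdm1a, hdac1, pbx4, ikzf4, ikzf5, cebpa, csf1ra, fli1a, esama, fech, tfr1a and the markers with no GFP- read) were named after their values were seen. Members and lists were chosen with earlier results of these data known. Alternatives were 5 added reads, TMM scaling, DESeq2 size factors, totals without hemoglobin reads, scaling to beta-actin, the most-read transcript, fold alone, edgeR's exact test with an assumed coefficient of variation of 0.4 at an adjusted p under 0.05, and no or a 50-read minimum. Software was edgeR 4.0.16 and DESeq2 1.42.0 in R 4.3.3, and SciPy 1.17.1, NumPy 2.4.6, matplotlib 3.10.9 and pandas 2.3.3 in Python 3.11.15.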

Additional observations from a re-analysis of the deposited data

How the results depend on the processing

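No log2 ratio of the 9 regulators changed sign under any alternative. Of 73 alternative values 69 kept direction and side of the threshold and 4 lost their call, those of runx1, myb, gfi1aa and meis1b under edgeR's exact test at a coefficient of variation set to 0.4. That test called 4 regulators higher and 0 lower in place of 7 and 1, and among the partner genes 1 higher and 0 lower in place of 6 and 10. It assumes a spread between replicates that these libraries cannot measure, and the share of all genes that it calls is not given here. With a minimum of 50 reads 6 regulators were called higher in place of 7, since runx1 has 19 reads and falls out, and 5 partner genes in place of 6. Partner genes called higher numbered 11 with scaling to beta-actin and 10 of the 48 tested with the fold alone. By the fold alone 16.2% of all tested genes were called higher. The shares of all genes called with scaling to beta-actin or with the 50-read minimum are not given here. Some of the 69 values that kept their side were fixed in advance. The fold alone leaves each ratio as it was and drops only the p condition. The most-read transcript of tal1, lmo2, runx1 and gfi1aa is the only one under their main gene ID. TMM scaling, size factors, totals without hemoglobin reads and beta-actin each raised every log2 ratio by the same amount, from 0.10 to 0.35. These settings are therefore not separate checks on each gene, and shifts of that size could not turn the sign of meis1b. Across alternatives the log2 ratios ran from 3.83 to 4.21 for tal1, 3.90 to 4.31 for lmo2, 1.83 to 4.01 for runx1, 1.46 to 1.87 for myb, 0.39 to 0.77 for nfe2, 1.93 to 2.60 for gfi1aa, 5.33 to 6.85 for gfi1b, 3.59 to 6.02 for ikzf1 and -1.44 to -1.09 for meis1b. The low ends for runx1, ikzf1 and gfi1b came with 5 reads added, by the construction of that setting. The median of all genes moved by 0.11 on the log2 scale with TMM scaling, 0.11 with size factors (equal for both libraries) and 0.35 with beta-actin, whose reads were 27068 and 31872. Depth limits runx1, ikzf1 and gfi1b, with 1, 1 and 3 GFP- reads. No paired analysis was possible because neither group holds more than 1 library, and there was no replicate to leave out.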

Other observations

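The genes next to the regulators on the chromosome were also read. For each regulator the nearest gene with at least 10 reads on either side in Zv9 was taken, a comparison chosen after the data were seen, which gave 18 genes. Of these 0 were called higher, 1 was lower and 17 were not called, with a median log2 ratio of -0.27, beside 9.78% called higher and 10.7% called lower over all tested genes. Counts of 0 and 1 among 18 genes are near those shares, and nothing particular to the neighbours is read from them. Beside tal1 lay ier5, an immediate early response gene, with 2403 GFP+ reads and 3161 GFP- reads (log2 -0.51), and pdzk1ip1 with 10 and 17 reads (log2 -0.85). The neighbour of lmo2 at lower coordinates, CAPRIN1, had 1832 and 1965 reads (log2 -0.21), and those of gfi1b, bcr and TSC1, had 110 and 89 (log2 0.19) and 270 and 188 reads (log2 0.41). The lower gene was gart, a purine synthesis gene next to runx1, with 288 and 552 reads (log2 -1.05). The largest ratio was that of zgc:110045 beside ikzf1, with 29 and 10 reads (log2 1.38) and an adjusted p of 0.0195 by Fisher's exact test, not called. Distances to these neighbours ran from 2968 bases (cbx5, beside nfe2) to 452882 bases (si:ch211-215d8.2, beside lmo2).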
